A study of Arabidopsis thaliana with 18 samples.

Results

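The SA treatment of one run of arrays was compared with its surfactant control in the Arabidopsis thaliana accession Van-0. The comparison holds 6 of the 18 arrays of the series, 3 treated with 0.3 mM SA (salicylic acid) in 0.02% silwet and 3 treated with 0.02% silwet alone. It was taken by the first number in the array titles, 121 to 123 for SA and 112 to 114 for silwet, and is called title set 2 here. Each group holds Rep1, Rep2 and Rep3 once, and values below are given in that order. Silwet, a silicone-based wetting agent for leaf sprays, was present in both groups, so SA was the labelled difference. Title sets 1 and 3 hold 3 SA and 3 silwet arrays each and share no array with title set 2. No label says what a title set marks, which tissue was taken, or how old the plants were, and the sources used here give no sampling time. The labels do not state whether replicates were separate plants, so every p-value below reflects only the spread between these arrays, which may be technical.

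Salicylic acid is a hormone that accumulates when a plant meets a biotrophic pathogen. It is sensed by NPR proteins, which act with TGA transcription factors on defence genes. The cell limits it by attaching glucose through UDP-glycosyltransferases or a methyl group through methyltransferases, and a defence response also draws on the protein-folding machinery of the endoplasmic reticulum (ER), which prepares secreted proteins. The design addresses which transcripts the hormone changes beyond what the wetting agent does.

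In title set 2 the SA-treated samples carried lower signals of CYP71B23, the ER co-chaperone gene ATERDJ3B and the ubiquitin-conjugating enzyme gene UBC22, and a higher signal of the peptidase gene scpl50, with no overlap between the groups. None of these differences passed the test that used all 3 silwet arrays with equal weight. They passed with array weights and in a fit on title set 2 alone that left out silwet Rep1. Within title set 2 that array stood closer to the SA arrays than to the other silwet arrays. In the fit of the other 17 arrays these differences missed the threshold, with adjusted p-values by limma between 0.0913 for CYP71B23 and 0.121 for UBC22. The 4 genes were named for this same difference, so these fits are no independent support. For the SA-response genes WRKY53 and GRX480 the groups overlapped. Of the 73 probe sets called higher with SA in title set 1, 58 had a lower mean with SA in title set 2 (79.5%, beside 51.5% of all probe sets). Without silwet Rep1 of title set 1 it was 28 of 43.

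Silwet Rep1 stood apart before any comparison. Over 15922 probe sets on the log2(signal + 2) scale, its Pearson correlation with the SA arrays was 0.943, 0.938 and 0.924, and with silwet Rep2 and Rep3 it was 0.889 and 0.866. Silwet Rep2 and Rep3 correlated at 0.973 with each other, and the 3 SA arrays at 0.960 to 0.970 among themselves. The plot of these correlations shows silwet Rep1 on the side of the SA arrays. The GAPDH control transcript, for which the array carries probe sets at both ends, had a ratio of 5' to 3' signal of 0.826, 1.04 and 0.959 with SA, against 0.465, 1.01 and 1.29 with silwet. The mean difference of this ratio was 0.021 (two-sided exact permutation p = 0.9, with 0.1 the smallest p that 3 against 3 arrays allow) and -0.207 without silwet Rep1. The ratio for 4 control probe set pairs, the median signal and the length measure described below gave an adjusted p of 1 each, adjusted over the 6 measures. The median signal was 26.1, 24.1 and 29.2 with SA, against 23.3, 31.5 and 35.5 with silwet, so silwet Rep1 had the lowest median of the 6 arrays. Over the whole series, the highest correlation of this array was 0.945, with silwet Rep1 of title set 3, whose GAPDH ratio was 0.225. The part that the RNA behind silwet Rep1 plays in the results was not tested.

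**Figure D1:**
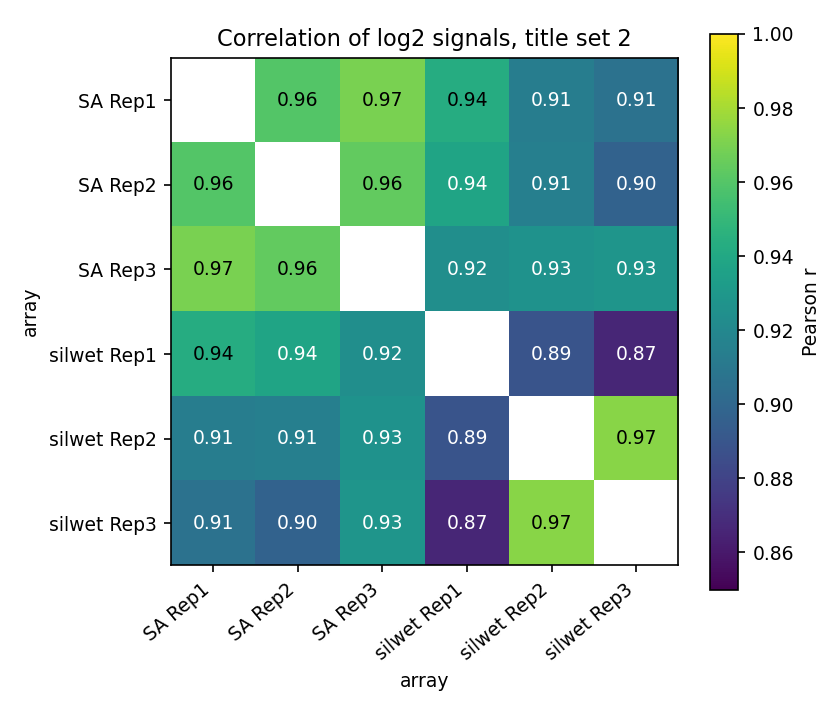
Pearson correlation of log2(signal + 2) over 15922 probe sets for each pair of the 6 arrays, with SA arrays first on both axes. Silwet Rep1 correlates at 0.92 to 0.94 with the SA arrays and at 0.87 to 0.89 with the other silwet arrays.

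By limma with all 18 arrays as 6 groups, 0 of 15922 probe sets passed a Benjamini-Hochberg adjusted p of 0.05 for SA minus silwet in title set 2, which is 0% of those tested. The smallest adjusted p was 0.0847. An unadjusted p under 0.05 was reached by 1725 probe sets, 505 higher (3.17%) and 1220 lower (7.66%), where chance alone would give about 796. The 3 SA arrays all lay above the 3 silwet arrays for 1220 probe sets (7.66%) and all below them for 1674 (10.5%). The 6 arrays alone also gave 0 calls, with 1866 at an unadjusted p under 0.05. Without silwet Rep1, the fit that shares its spread with the other title sets again gave 0 calls, with 3888 at an unadjusted p under 0.05.

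A fit on title set 2 alone without silwet Rep1, chosen after the data were seen, called 3444 probe sets, 846 higher (5.31%) and 2598 lower (16.3%) with SA. It compares 3 arrays with 2, has 3 residual degrees of freedom, and takes its silwet spread from the pair that correlated at 0.973. It is called the 5-array fit below. Leaving out any other single array of the 6 gave 0 calls. With all 18 arrays kept but weighted by how well each matched its group, limma called 1360, 164 higher and 1196 lower, and silwet Rep1 had the lowest weight of the 6 arrays. Silwet Rep1 itself lay above all SA arrays for 33.8% of the 2598 probe sets called lower and below all of them for 31.4%, against 30.6% and 32.7% of all probe sets tested. For the 846 called higher it lay below all SA arrays for 29.9% and above all of them for 42%. The split of higher and lower calls moved with the scaling of the arrays, with 1724 higher and 2071 lower after quantile normalization and 2972 higher and 1771 lower after median centring. Taken over every probe set and all 6 arrays, the median difference moved with these scalings to 0.06 log2 units and 0.15, against -0.02 as deposited.

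The genes of the SA pathway came first. Only 2 of the 24 SA-response genes listed and 4 of the 22 genes listed for SA synthesis, perception and conversion were tested by a probe set that names 1 gene. WRKY53 (AT4G23810), a WRKY factor of the defence and leaf ageing programmes, had signals of 83.9, 123 and 96.8 with SA, against 169.6, 159.7 and 104 with silwet, a log2 difference of -0.49 ± 0.32 (SE, n = 3 each). GRX480 (AT1G28480), a glutaredoxin that interacts with TGA factors, had 218, 319.7 and 252 with SA, against 377, 188 and 162 with silwet. Silwet Rep1 had the highest GRX480 signal of the 6 arrays and the other 2 silwet arrays had the lowest, so the difference of 0.20 ± 0.40 with all arrays became 0.57 without silwet Rep1 and -0.036 without silwet Rep3. SAG101 (AT5G14930), a lipase-like partner of EDS1 in immune signalling, was the member of the 2 SA lists whose groups did not overlap, with 19.3, 15.4 and 19.4 with SA, against 33.4, 39.6 and 28.7 with silwet. Its log2 difference was -0.84 ± 0.32 (limma adjusted p = 0.45). All SA arrays lay below all silwet arrays for 10.5% of all probe sets.

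UGT76B1 (AT3G11340), a glycosyltransferase able to conjugate SA, had 40.5, 146 and 86.6 with SA, against 54.0, 84.0 and 38.3 with silwet. Its groups overlapped, and the log2 difference was 0.51 ± 0.43 in title set 2. BSMT1 (AT3G11480), a methyltransferase that makes methyl salicylate, had 111, 41.7 and 26.3 with SA, against 69.6, 10.7 and 42.7 with silwet, and each group held both high and low arrays. AT5G52810 had 105, 194 and 117 with SA, against 170.1, 202 and 162 with silwet, with SA Rep2 inside the silwet range. None of these 6 genes was called in any of the fits with silwet Rep1, and the 5-array fit called none of them either, with adjusted p-values between 0.058 for SAG101 and 0.481 for UGT76B1.

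The 10 genes with the lowest values were taken among named genes whose groups did not overlap, so the order of their groups is a result of the choice. CYP71B23 (AT3G26210), a cytochrome P450 monooxygenase, had 65.6, 94.4 and 76.0 with SA, against 204, 340.0 and 245 with silwet. Its log2 difference of -1.70 ± 0.36 had the smallest unadjusted p among them and an adjusted p of 0.413 by limma. Every silwet array carried more than 2 times the signal of every SA array, silwet Rep1 included. PIA1 (AT2G20630), a protein phosphatase 2C first described as induced during a resistance response, had 78.9, 125 and 78.8 with SA, against 212, 397 and 428 with silwet. CSA1 (AT5G17880), an intracellular immune receptor of the TIR class, had 64.0, 25.3 and 63.8 with SA, against 81.6, 234 and 205 with silwet. In CSA1, silwet Rep1 lay close to SA Rep1 and SA Rep3, and the other silwet arrays were higher.

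Silwet Rep1 lay close to the SA arrays in several others of the 10. AT2G15042 had 7.65, 1.95 and 9.66 with SA, against 10.9, 72.9 and 80.9 with silwet. SEC6 (AT1G71820), a subunit of the exocyst that tethers secretory vesicles to the plasma membrane, had 16.7, 20.0 and 24.2 with SA, against 27.4, 121 and 151 with silwet. XPO1B (AT3G03110), an exportin that carries proteins out of the nucleus, had 24.97, 9.74 and 15.1 with SA, against 41.7, 65.7 and 64.1 with silwet. AT4G16660 had 18.4, 15.5 and 26.8 with SA, against 27.1, 143 and 181 with silwet. In AT2G15042, SEC6 and AT4G16660 silwet Rep1 sat just above the highest SA array, far below silwet Rep2 and Rep3, and in XPO1B it lay between the groups. In all 10 genes silwet Rep1 was the lowest of the 3 silwet arrays, and in 6 it was under 0.5 times both others. Log2 differences ran from -2.50 (AT2G15042) to -1.70 (CYP71B23) with all arrays and from -3.37 to -1.86 without silwet Rep1. The choice rests on the same arrays, so their calls in the 5-array fit are not given as a result. The other members were AT2G30990, AT2G38800 and AT2G03510.

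**Figure D2:**
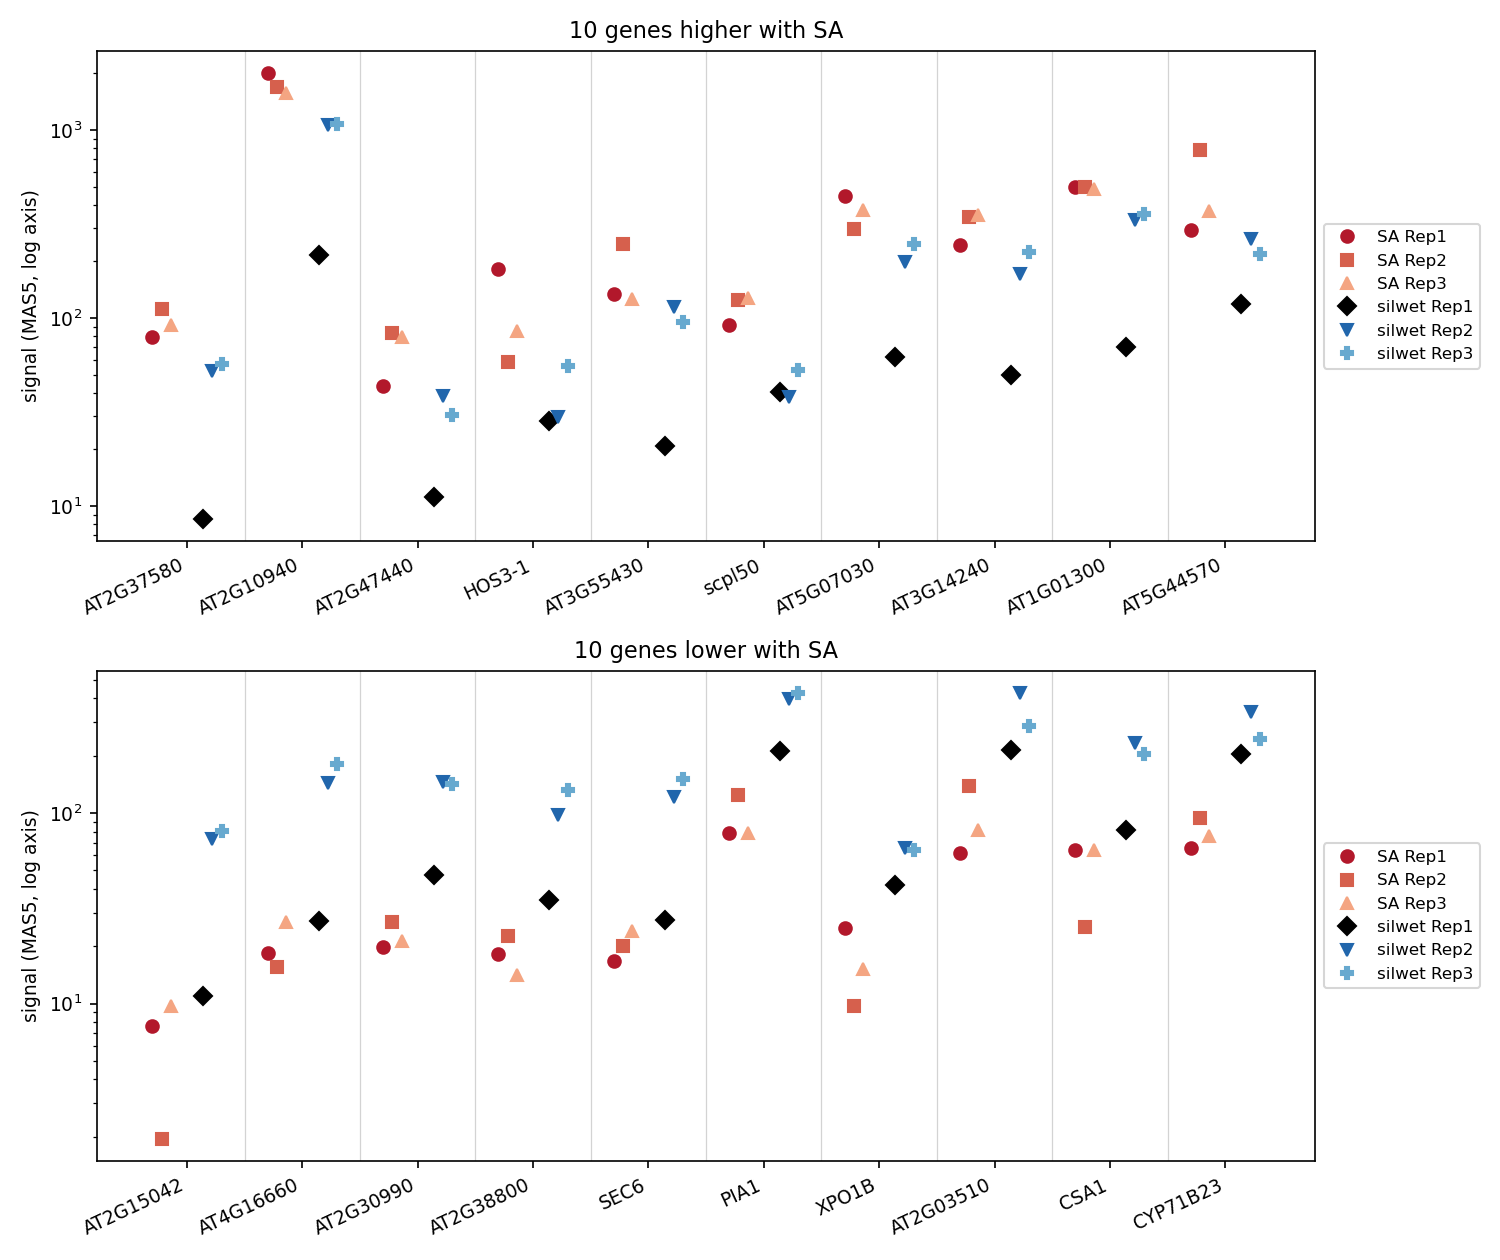
Signal of each array (log axis) for the 10 named genes with the highest and the 10 with the lowest log2 difference among genes whose groups do not overlap, SA arrays left of silwet arrays within each gene. The black diamond is silwet Rep1, which is the lowest silwet array for 9 of the 10 genes higher with SA and for all 10 genes lower with SA.

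The 10 genes with the highest values, taken by the same rule, had log2 differences between 1.21 and 1.57. Silwet Rep1 was the lowest silwet array in 9 of them and under 0.5 times both other silwet arrays in 7, so here it widened the difference. AT2G10940 had 2009, 1701 and 1568 with SA, against 215, 1061 and 1070.4 with silwet. AT1G01300 had 495, 495 and 486 with SA, against 70.2, 330.2 and 356 with silwet. Without silwet Rep1 the differences of the 10 genes lay between 0.52 and 1.30. The gene whose silwet arrays lay together was scpl50 (AT1G15000), a member of the serine carboxypeptidase-like family, with 92.0, 124 and 128 with SA, against 40.6, 38.1 and 53.0 with silwet. Its log2 difference was 1.35 ± 0.30 with all arrays (limma adjusted p = 0.45) and 1.30 without silwet Rep1 (adjusted p = 0.00586 in the 5-array fit). The gene was chosen on these same arrays, so the 5-array call is no independent support. HOS3-1 (AT4G36830), a homologue of yeast fatty acid elongases, had 181, 58.7 and 85.4 with SA, against 28.3, 29.8 and 55.5 with silwet, with SA Rep1 well above the other SA arrays. The others were AT2G37580, AT2G47440, AT3G55430, AT5G07030, AT3G14240 and AT5G44570.

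The difference between SA and silwet moved with the length of the gene. Gene length was the span of the gene in the TAIR10.1 gene table, introns included, and was known for 8735 of the 8772 tested probe sets that name 1 gene. Across these probe sets, which share the 6 arrays and are no independent replicates, the Spearman correlation of the log2 difference with gene length was -0.37 with all arrays and -0.55 without silwet Rep1. In title sets 1 and 3, with all their arrays, it was 0.24 and 0.45, of the opposite sign. The part of silwet Rep1 of title set 1 in that sign was not tested. The genes were put in 10 bins of equal size by length. In the bin of the shortest genes (median 901 bp), the median log2 difference was 0.20 with all arrays and 0.40 without silwet Rep1. In the bin of the longest genes (median 5464.5 bp) it was -0.45 and -0.89. The median difference was thus below 0 for long genes and above 0 for short ones. For title set 1, deviations of each array from the mean of the whole series were compared between these bins. The median of the longest genes minus that of the shortest was 0.26, 0.62 and 0.51 with SA. With silwet it was -0.92, 0.49 and 0.80. Silwet Rep1 of title set 1 thus ran against the other arrays of that set.

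The single arrays differed within the groups. In the bin of the longest genes, the median deviation from the mean of the 6 arrays was -0.24, -0.42 and 0.08 with SA, against -0.56, 0.52 and 0.81 with silwet. In the bin of the shortest genes it was 0.10, 0.15 and 0.06 with SA, against 0.35, -0.28 and -0.29 with silwet. Silwet Rep1 thus ran in the direction of SA Rep1 and SA Rep2, and further than either, as the plot by gene length shows. Of the 874 probe sets in the bin of the longest genes the 5-array fit called 400 lower (45.8%) and 0.23% higher with SA, and among the shortest genes it called 0.80% lower and 13.6% higher. After a smooth trend on gene length had been removed from each array, an alternative chosen after the data were seen, the 5-array fit called 950 of 8735 probe sets, 343 higher (3.93%) and 607 lower (6.95%) with SA. Without that step it called 1770 of the same probe sets, 479 higher (5.48%) and 1291 lower (14.8%). With all 18 or all 6 arrays the count remained at 0 after the trend was removed, with 1077 and 1321 at an unadjusted p under 0.05. The part of RNA quality in the length trend was not tested.

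**Figure D3:**
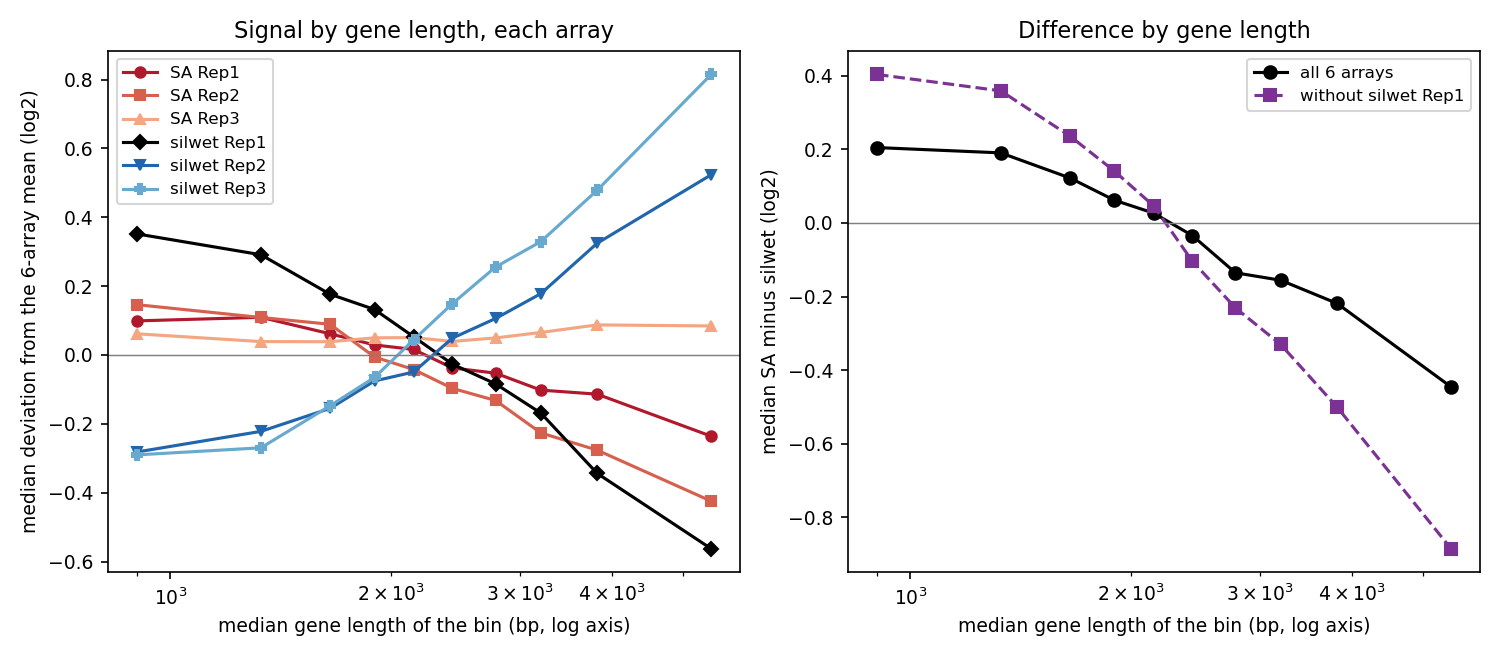
Left, median deviation of each array from the mean of the 6 arrays (log2) in 10 bins of genes ordered by length, SA arrays in red and silwet arrays in black and blue. Right, median log2 difference of SA minus silwet in the same bins with all 6 arrays and without silwet Rep1. Silwet Rep2 and Rep3 climb with length, silwet Rep1 falls with SA Rep1 and Rep2, and the difference runs from 0.20 for the shortest to -0.45 for the longest genes with all arrays.

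The gene families below, formed from gene symbols, are described by counts and medians without a test, beside the median of -0.02 and the 7726 higher and 8196 lower probe sets of all 15922. Of 6 ER co-chaperone and ER degradation genes, 5 had a lower mean with SA, and the median was -0.27. ATERDJ3B (AT3G62600), which helps the chaperone BiP to fold secreted proteins, had 402, 370.1 and 374 with SA, against 717, 824 and 657 with silwet. All 3 silwet arrays lay well above all SA arrays, and the log2 difference of -0.93 ± 0.21 was -0.94 without silwet Rep1 (5-array adjusted p = 0.00695). With the length trend removed as well it was -0.67, and the call was lost (adjusted p = 0.0546). ATERDJ2B, a relative of the Sec63 protein of the translocation pore, had 30.5, 35.4 and 30.5 with SA, against 49.4, 105 and 92.4 with silwet. DER1 of ER-associated degradation had 149, 185 and 154 with SA, against 216, 198 and 219 with silwet, also without overlap. DER2.2, of the same degradation pathway, lay the other way, with 178, 213 and 197 with SA, against 172, 175 and 171 with silwet, and all its SA arrays were above all silwet arrays by a small margin. Its log2 difference was 0.18 ± 0.20. The 3 genes of the separate ER folding list that could be tested had a median of -0.23.

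Of 15 cytochrome P450 genes tested, 12 had a lower mean with SA, with a median of -0.50. In 4 of the 15 all SA arrays lay below all silwet arrays, beside 10.5% of all probe sets. The family was named by symbol and is made up mostly of CYP71B members. Beside CYP71B23, CYP71B24 had 9.43, 13.5 and 15.8 with SA, against 24.4, 34.7 and 35.4 with silwet. CYP71B26 had 189.7, 168 and 152 with SA, against 380.4, 417 and 292 with silwet. Both kept their order with silwet Rep1 included, and the 5-array fit called 4 of the 15 lower (CYP71B23, CYP71B24, CYP71B26 and CYP71B36) beside 16.3% of all probe sets. Removal of the length trend left the median at -0.55. CYP71B5 had all SA arrays above all silwet arrays, with 32.7, 29.4 and 36.4 with SA, against 24.6, 27.9 and 25.3 with silwet. Probe sets of closely related P450 genes may share transcripts, which was not tested.

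UDP-glycosyltransferases attach sugars to hormones and other small molecules. Of 32 tested, 21 had a higher and 11 a lower mean with SA, with a median of 0.17. UGT72B3 had 141, 122 and 159.7 with SA, against 57.9, 78.2 and 86.1 with silwet. UGT71C4 had 253, 269.8 and 278 with SA, against 140.4, 145 and 162 with silwet, and its SA arrays all exceeded its silwet arrays by more than the spread within either group. UGT73B5 lay the other way, with 14.4, 21.7 and 12.4 with SA, against 34.4, 56.0 and 24.4 with silwet, a log2 difference of -1.10 ± 0.32 (limma adjusted p = 0.45). The 5-array fit called 3 of the 32 higher (UGT72B3, UGT71C4 and UGT78D2) and 2 lower (UGT73C1 and UGT74B1), beside 5.31% higher and 16.3% lower of all probe sets. Of 8 tau-class glutathione S-transferases, detoxifying enzymes, 5 had a higher and 3 a lower mean, with a median of 0.04 (0.12 without silwet Rep1). GSTU27 had 279, 368 and 273 with SA, against 502, 426 and 404 with silwet, without overlap. GSTU22 had 11.1, 19.6 and 12.5 with SA, against 44.7, 30.7 and 19.3 with silwet, where silwet Rep3 lay below SA Rep2.

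Ubiquitin is attached to proteins by conjugating enzymes and ligases and removed by proteases. Of 12 ubiquitin-specific proteases, which remove ubiquitin, 11 had a lower mean with SA and the median was -0.64, or -0.41 with the length trend removed. Their median gene length was 3950 bp, against 2280 bp over all genes with a length. UBP24 had 48.8, 35.3 and 45.7 with SA, against 33.5, 129.6 and 206 with silwet. UBP23 had 28.2, 19.4 and 33.3 with SA, against 16.4, 96.5 and 92.6 with silwet. In both, silwet Rep1 lay below all SA arrays, so the order of the groups came from silwet Rep2 and Rep3. The 5-array fit called 6 of the 12 lower, beside 16.3% of all probe sets, and 3 after removal of the length trend, beside 6.95%. Of 8 U-box ubiquitin ligases 5 had a lower mean, with a median of -0.48 (-0.80 without silwet Rep1). PUB24 (AT3G11840), which dampens immune responses, had 61.4, 97.4 and 80.7 with SA, against 102, 131 and 119 with silwet, without overlap, and PUB23 had 24.0, 23.9 and 28.3 with SA, against 18.3, 61.9 and 42.2 with silwet, with silwet Rep1 the lowest array. Of 11 ubiquitin-conjugating enzymes 8 had a lower mean, with a median of -0.14. UBC22 (AT5G05080) had 91.9, 103 and 80.5 with SA, against 178, 187 and 209 with silwet, a log2 difference of -1.05 ± 0.33 (limma adjusted p = 0.45) that was -1.10 without silwet Rep1 (5-array adjusted p = 0.00593).

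Of 36 secretory and endosomal trafficking genes, 16 had a higher and 20 a lower mean with SA, with a median of -0.04 (-0.26 without silwet Rep1). In 6 all SA arrays lay above all silwet arrays and in 6 all below, beside 7.66% and 10.5% of all probe sets. The 5-array fit called 2 higher and 11 lower, beside 5.31% and 16.3%, and 1 higher and 5 lower after removal of the length trend, beside 3.93% and 6.95%. PRA1.B1, a PRA1 family member, had 346.8, 472 and 451 with SA, against 145, 292 and 227 with silwet, with the SA arrays above. VPS2.2, a subunit of the ESCRT complex that sorts membrane cargo, had low signals of 2.76, 1.49 and 1.19 with SA, against 20.3, 11.8 and 23.603 with silwet. Of 10 autophagy genes 8 had a higher mean, with a median of 0.02 (0.25 without silwet Rep1). ATG3 (AT5G61500), which couples ATG8 to lipid, was the one with no overlap, at 57.1, 72.3 and 64.6 with SA, against 101, 149.5 and 169 with silwet. The share of all probe sets with this order was 10.5%. Of 11 beta-glucosidases 9 had a lower mean, with a median of -0.28 (-0.63 without silwet Rep1), and BGLU25 had 76.0, 67.3 and 58.6 with SA, against 131, 281 and 204 with silwet. Of 10 RNA polymerase II and Mediator subunits 8 had a lower mean, with a median of -0.20, which was 0.02 without silwet Rep1. MED9 had 30.03, 33.1 and 15.8 with SA, against 49.9, 51.6 and 44.2 with silwet, without overlap.

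Expansins and xyloglucan hydrolases loosen the cell wall. Of 15 expansin and xyloglucan hydrolase genes 12 had a higher mean with SA, with a median of 0.30 that was also 0.30 after removal of the length trend, and 5 had all SA arrays above all silwet arrays, beside 7.66% of all probe sets. EXPA15 had 119, 147 and 142 with SA, against 85.3, 81.7 and 94.1 with silwet. XTH32 had 742, 671 and 740.0 with SA, against 575, 395 and 439.8 with silwet. EXPB3 had 214, 193 and 253 with SA, against 115, 109 and 147 with silwet, so in these 3 genes silwet Rep1 lay below all SA arrays, as the other silwet arrays did. XTH20 was lower with SA, with 20.4, 25.1 and 30.6 with SA, against 66.1, 31.6 and 32.7 with silwet. The 5-array fit called 4 of the 15 higher (XTH32, EXPB3, EXPA4 and EXPA8), beside 5.31% of all probe sets, and 2 after removal of the length trend (XTH32 and EXPB3), beside 3.93%. Of 11 SWEET sugar transporters 10 had a higher mean, with a median of 0.31 (0.46 without silwet Rep1). SWEET17, which carries fructose across the vacuolar membrane, had 801, 562 and 625 with SA, against 746, 342 and 407 with silwet. Silwet Rep1 lay among the SA arrays of SWEET17, and none of the 11 genes had groups that did not overlap. Over all probe sets the SA arrays all lay above for 7.66% and all below for 10.5%.

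The plastid genome encodes photosynthesis subunits and part of its own expression machinery. Of 33 plastid-encoded photosynthesis genes 30 had a higher mean with SA, with a median of 0.29, which was 0.15 after removal of the length trend and -0.01 with that step and without silwet Rep1. These genes are short, with a median of 246 bp. Of the 33, 3 had no overlap with SA above silwet, beside 7.66% of all probe sets. atpA, a subunit of the ATP synthase, had 2020.4, 2112 and 1679 with SA, against 1422, 1442 and 1114 with silwet. psbE, a subunit of photosystem II, had 1934, 1391 and 1205 with SA, against 1255, 647 and 403 with silwet, and silwet Rep1 lay within the SA range. Of 10 genes of the plastid NDH complex 9 had a higher mean, with a median of 0.31 that was 0.16 after removal of the length trend and 0.08 with that step and without silwet Rep1. Of 22 genes of plastid gene expression 10 had a higher and 12 a lower mean, with a median of -0.10. Their 5-array calls were 0 higher and 6 lower, beside 5.31% and 16.3% of all probe sets. With the length trend removed they were 0 higher and 7 lower, beside 3.93% and 6.95%, and the median without silwet Rep1 was then -0.42. rpoA, the alpha subunit of the plastid RNA polymerase, had 518, 523 and 495 with SA, against 963, 931 and 667 with silwet, without overlap. The nuclear photosynthesis genes RCA and PORB, the members of that list that could be tested, had a median of 0.30 with all arrays and -0.01 without silwet Rep1. RCA, the activase of Rubisco, had 4059, 3453 and 2892 with SA, against 1429, 3151 and 2910.2 with silwet, where silwet Rep1 was the lowest array.

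**Figure D4:**
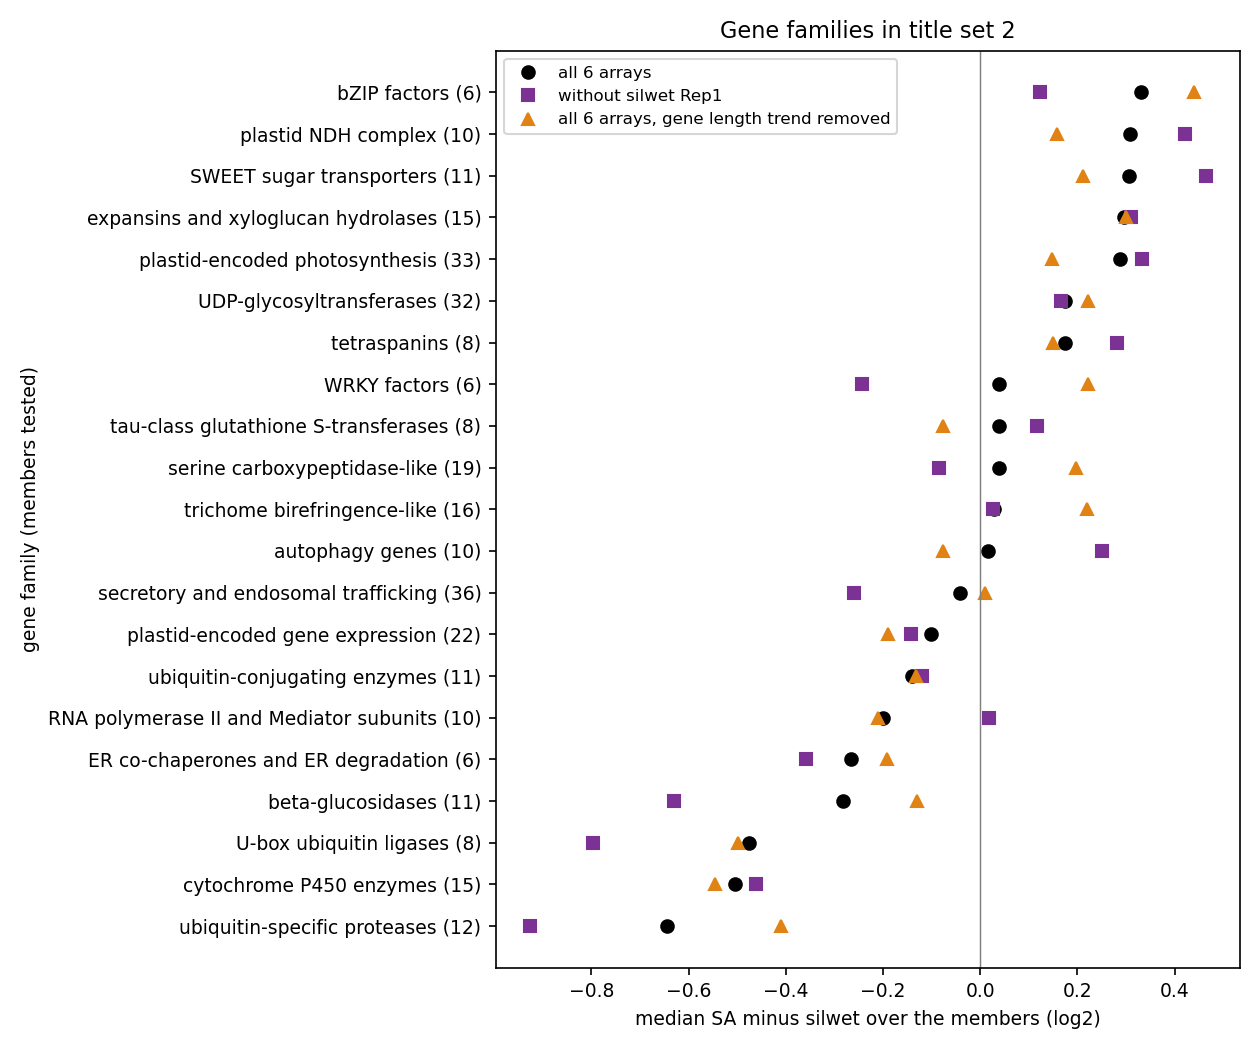
Median log2 difference of SA minus silwet over the tested members of each gene family with all 6 arrays (circles), without silwet Rep1 (squares) and with the gene length trend removed from all 6 arrays (triangles). The families run from ubiquitin-specific proteases at -0.64 to bZIP factors at 0.33, and the squares and triangles show how far silwet Rep1 and gene length move each median.

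The 6 bZIP factors had the highest family median, 0.33, which was 0.12 without silwet Rep1. The median was 0.17 for 8 tetraspanins (0.28 without silwet Rep1), 0.04 for 6 WRKY factors (-0.24) and 0.04 for 19 serine carboxypeptidase-like genes (-0.09). It was 0.03 for 16 trichome birefringence-like genes both with and without that array. TBL18 of the last family, which acetylates wall polysaccharides, had 24.7, 24.4 and 31.6 with SA, against 24.9, 74.8 and 76.5 with silwet, with silwet Rep1 among the SA arrays. TET6, a tetraspanin of low signal, had 19.2, 22.8 and 18.8 with SA, against 13.7, 1.72 and 10.6 with silwet. SCPL34, a carboxypeptidase-like gene, had 121, 81.5 and 110.2 with SA, against 65.7, 69.3 and 77.5 with silwet, without overlap.

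The 3 genes of the abscisic acid and drought list that could be tested had a higher mean with SA, and the 5-array fit called all 3 higher, beside 5.31% of all probe sets. Their median was 0.72, and 1.99 without silwet Rep1. COR15A (AT2G42540), a chloroplast protein of cold and drought tolerance, had 2563, 1447 and 1980.3 with SA, against 2260.4, 952 and 874 with silwet. SAG29 had 179, 90.7 and 71.6 with SA, against 162, 12.8 and 22.8 with silwet. AT3G02480 had 175, 104 and 45.2 with SA, against 335, 26.1 and 18.8 with silwet. In each of them silwet Rep1 was as high as SA arrays and well above the other silwet arrays, so the groups overlapped when it was kept. THI2.1, a thionin of jasmonate defence, had 45.8, 10.5 and 17.9 with SA, against 194, 14.5 and 19.9 with silwet, and its difference of -0.86 became 0.26 without silwet Rep1. GI, a clock gene, had 144, 149 and 312.4 with SA, against 56.6, 333 and 490.1 with silwet, and its difference of -0.16 became -1.09. The list of touch and early stress genes (4 tested) had a median of -0.31, and -0.55 without silwet Rep1. The median of detoxification (3 tested) was -0.96, and -0.38 without that array. That of auxin response (3) was 0.07 and turned to -0.31, and that of cell wall growth (3) was 0.23 and 0.31. The 2 tested genes of jasmonate and ethylene defence, THI2.1 and PDF1.2, had a median of -0.42 that turned to 0.19 without silwet Rep1. For heat shock 1 gene was tested, ATHSP22.0, with 9.95, 23.1 and 20.4 with SA, against 2.23, 8.53 and 15.6 with silwet and a log2 difference of 1.03 that was 0.47 without silwet Rep1, and IAA29 of the auxin list had 32.1, 41.3 and 34.9 with SA, against 62.0, 46.1 and 44.0 with silwet.

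Markers of other cell types were thin. The root hair expansin EXPA18 was the 1 root marker tested of 8, with 12.9, 25.5 and 16.5 with SA, against 15.0, 13.5 and 13.5 with silwet, low in every array. FMA, a factor of guard cell formation, had 32.8, 26.4 and 43.8 with SA, against 41.3, 39.8 and 48.8 with silwet, and the 2 guard cell markers tested had a median of -0.06 (0.15 without silwet Rep1). No flower, pollen, phloem or seed marker on the lists was among the tested probe sets that name 1 gene, so their part in the results was not tested, and the same is so of the lists of senescence and sugar starvation, glucosinolate synthesis, camalexin synthesis and NAC factors. RCA and PORB were among the bright signals in all 6 arrays. The reference gene GAPC2 had 3345, 3311 and 2677 with SA, against 3181, 3292 and 2562 with silwet, a difference of 0.05 ± 0.13.

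The SA difference of title set 2 ran against that of title set 1. Over 15922 probe sets the Pearson correlation of the log2 differences was -0.44 between title sets 2 and 1 and -0.04 between title sets 2 and 3. Without silwet Rep1 of title set 2 these correlations were -0.46 and -0.29. Title set 3 kept its own silwet Rep1, whose GAPDH ratio was 0.225. The Spearman correlation with gene length was -0.55 in title set 2 without silwet Rep1 and 0.45 in title set 3. The value of -0.29 was not computed again without silwet Rep1 of title set 3 or with the length trend removed. Limma called 73 probe sets higher with SA (0.458%) and 56 lower (0.352%) in title set 1, and 0 in title set 3. Of the 73 called higher in title set 1, 58 had a lower mean with SA in title set 2 (79.5%, beside 51.5% of all probe sets), and in 26 all SA arrays lay below all silwet arrays (35.6%, beside 10.5%). Their median log2 difference was 1.44 in title set 1, -0.35 in title set 2 and -0.01 in title set 3. Of the 56 called lower, 51 had a higher mean in title set 2 (91.1%, beside 48.5%), with medians of -1.26, 0.35 and -0.07. The medians of title set 2 were -0.42 and 0.48 without silwet Rep1, and -0.34 and 0.38 with the length trend removed. These probe sets are not independent of each other.

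Silwet Rep1 of title set 1 also stood apart, and correlated at 0.943, 0.949 and 0.932 with the SA arrays of title set 2. Without that array title set 1 had 43 probe sets called higher, of which 28 were lower in title set 2, and 20 called lower, of which 17 were higher in title set 2. Over all probe sets 51.5% were lower and 48.5% higher in title set 2. All SA arrays lay below all silwet arrays of title set 2 in 9 of the 43 and above them in 4. In the 20 these counts were 1 and 6, beside 10.5% and 7.66% of all probe sets. The medians in title set 2 were then -0.19 and 0.24. The opposite lean was therefore smaller, with the same sign, without it.

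The difference between the title sets was tested directly. For title set 2 minus title set 1, limma called 334 probe sets (2.1%), 131 with a higher and 203 with a lower value in title set 2. The count was 1309 (503 higher, 806 lower) without silwet Rep1 of title set 2 and 79 (22 higher, 57 lower) without silwet Rep1 of title set 1. For title set 2 minus title set 3 it was 0, with a smallest adjusted p of 0.239. For title set 2 minus the mean of title sets 1 and 3 it was 1 (0.00628%), an unnamed probe set of low signal, beside 2484 at p under 0.05 before adjustment.

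Among genes of the SA pathway, UGT76B1 had a log2 difference of 0.51 in title set 2, 3.65 in title set 1 and 1.32 in title set 3 (adjusted p = 0.0248 by limma for title set 2 minus title set 1). AT5G52810 had -0.40, 1.44 and 0.01 (adjusted p = 0.0299). WRKY53 had -0.49, 1.27 and -0.31 and missed the threshold (adjusted p = 0.0515). SAG101 had -0.84, 0.78 and 0.21 (adjusted p = 0.0717), and GRX480 had 0.20, 0.93 and -0.19 (adjusted p = 0.485). BSMT1 ran the other way, with 0.59, -1.08 and 0.46 (adjusted p = 0.315). The value of title set 2 was thus below that of title set 1 in 5 of the 6 genes. How many of all probe sets had this order was not counted. The difference passed the threshold in UGT76B1 and AT5G52810, beside 2.1% of all probe sets. The SA lists were made with earlier results of these data known, so these counts are no independent support.

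Of the named genes outside the pathway, ATERDJ3B had -0.93 in title set 2 and 0.93 in title set 1 (adjusted p = 0.00898 for the difference). UGT73B5 had -1.10 and 1.65 (adjusted p = 0.0105), and CYP71B23 had -1.70 and 1.18 (adjusted p = 0.0155). GSTU22 had -0.995 and 1.95 (adjusted p = 0.0305, and 0.0643 without silwet Rep1 of title set 1). In the other direction scpl50 had 1.35 and -0.91 (adjusted p = 0.0238). These genes were named for the size or the p of their difference in title set 2. That difference enters this test, so the p-values are no independent support. The 5 named genes with the smallest p for title set 2 against both other sets were AT5G45500, AT1G34750, AT3G05180, AT1G62840 and AT1G11330. AT5G45500 had 51.8, 41.7 and 67.9 with SA, against 104, 211 and 149.7 with silwet, and AT3G05180 had 184, 181 and 181 with SA, against 141, 69.4 and 113 with silwet. AT1G11330 had 43.8, 45.1 and 39.96 with SA, against 78.0, 119 and 94.9 with silwet. In all 5 the groups did not overlap in title set 2 with silwet Rep1 included. The contrast that chose these 5 uses the same arrays, so this order is no independent support. Over all probe sets the SA arrays all lay above for 7.66% and all below for 10.5%. DRT100 and MSRB5, a methionine sulfoxide reductase, were chosen after their values were seen and had 593, 510.3 and 507 with SA, against 470.4, 242 and 247 with silwet and 719, 296 and 464 with SA, against 418, 178 and 277 with silwet, with SA Rep2 of MSRB5 below silwet Rep1.

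**Figure D5:**
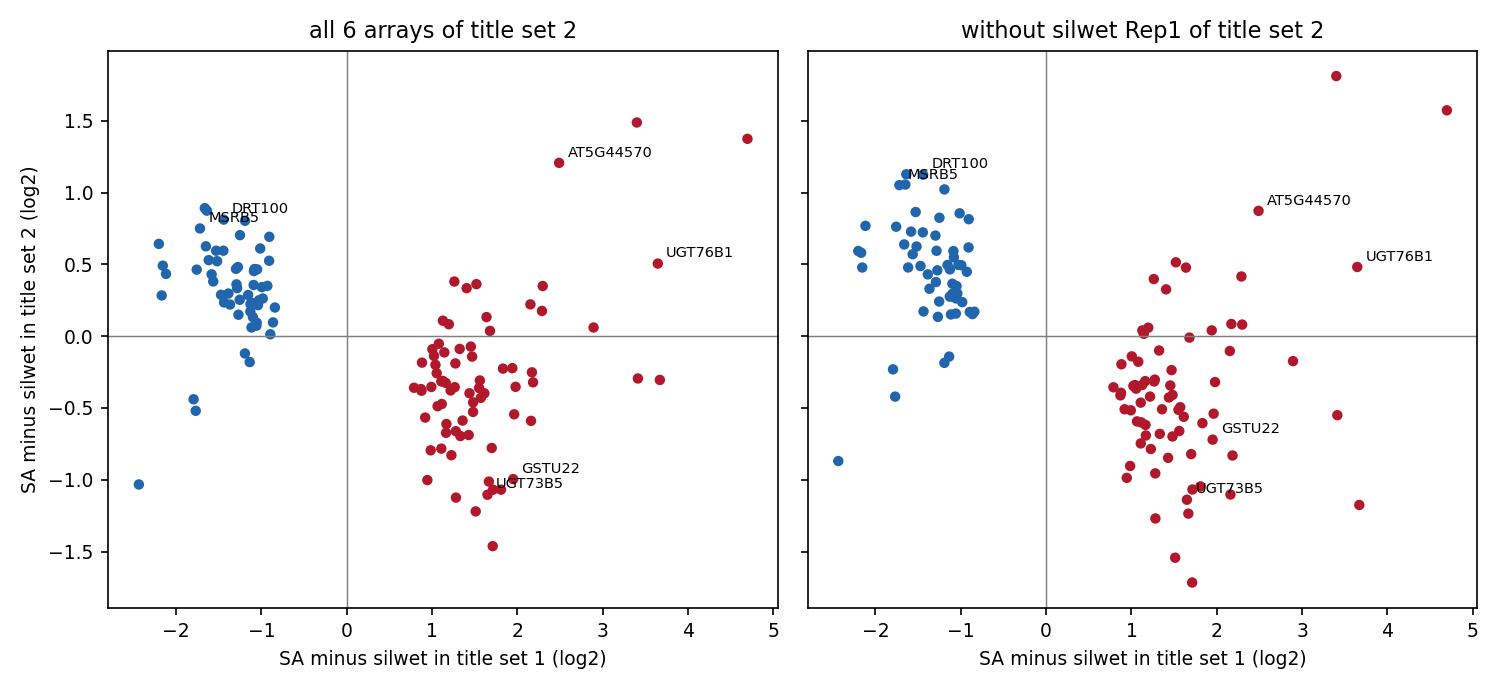
Log2 difference of SA minus silwet in title set 2 (vertical axis) against title set 1 (horizontal axis) for the 129 probe sets called in title set 1, with all 6 arrays of title set 2 (left) and without its silwet Rep1 (right). Red points are higher and blue points lower with SA in title set 1. Most red points, 58 of 73, lie below 0 and most blue points, 51 of 56, above 0 in title set 2.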

How the data were processed

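The labels name total RNA of Van-0 as the extract, biotin as the label and ATH1 as the array. The authors deposited 1 linear intensity (signal) for each of 22810 probe sets on every array, and the submitters' processing notes name MAS5 for it, with no version or further step. In these deposited intensities every array had the same mean, 100, once the lowest and highest 2% of its values were removed. A shift common to most transcripts is therefore invisible. The number of arrays limits the precision.

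Signals were analysed as log2(signal + 2), a scale on which changes of weak signals look too small. The 64 AFFX probe sets and the lowest 30% by mean were left out, which left 15922. All 18 arrays entered limma 3.58.1 in R 4.3.3 (lmFit, then eBayes with a trend on intensity) as 6 groups of treatment by title set, with two-sided tests, Benjamini-Hochberg adjustment over 15922 probe sets and a threshold of 0.05. Title set 2 was compared with the others by contrasts in the same fit. The script was tested on simulated data. No pair of the 6 arrays held identical values. The length trend was a lowess curve (span 0.3) on gene length, subtracted from each array.

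Names came from the platform's annotation, with 13436 of 13513 probe sets with 1 gene matched to the TAIR10.1 gene table. Of the tested probe sets 7150 are unnamed here or have several genes. The gene lists and the families, some of them added after the values were seen, and the choice of this comparison were made with earlier results of these data known. Named genes were all tested members of the 2 SA lists, the member with the smallest p of every other list, the 10 highest and 10 lowest among probe sets past the threshold (none passed, so among those whose groups do not overlap and whose higher group has a mean of at least 50), and the 5 with the smallest p for the difference between title sets. A gene with several probe sets is given by its brightest probe set on average. The other genes named within lists and families, DRT100 and MSRB5 were chosen after their values were seen.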

Additional observations from a re-analysis of the deposited data

Results flagged for a closer look

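One probe set that is unnamed here was called for the difference between SA and silwet in title set 2 minus the mean of that in title sets 1 and 3. The difference was -3.12 on the log2 scale (limma adjusted p = 0.0125). Its signals were 1.15, 5.71 and 4.15 with SA, against 25.5, 16.2 and 26.3 with silwet, all of them low, and its call was lost without silwet Rep3, where no probe set was called.

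For 16 of the 62 named genes the SA difference in title set 2 differed from that in title set 1 by limma at an adjusted p of 0.05. The share over all probe sets was 2.1%. Many of the named genes were chosen by their difference in title set 2 or between title sets, so the count is no independent support. The log2 difference between the title sets was -3.17 for AT5G45500, -3.14 for UGT76B1, -2.95 for GSTU22, -2.88 for CYP71B23, -2.75 for UGT73B5, -2.41 for XPO1B, -2.40 for AT1G11330, -2.06 for AT1G62840, -2.03 for AT1G34750, -1.86 for ATERDJ3B, -1.84 for AT5G52810 and -1.54 for PUB24. It was 2.68 for HOS3-1, 2.25 for scpl50, 2.15 for SCPL34 and 1.995 for AT3G05180. Without silwet Rep1 of title set 1, all 16 kept the sign of this difference and 12 were still called.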

How the results depend on the processing

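The count of 0 probe sets called for SA minus silwet held under both other pseudocounts, both other filters, quantile normalization, median centring and eBayes without trend. It also held with each of the 6 arrays of title set 2 left out of the 18-array fit. The arrays of the other title sets were not left out for this count. Array weights gave 1360 calls (164 higher, 1196 lower), with silwet Rep1 given the lowest weight of the 6 arrays (0.198). Alternatives chosen after the data were seen gave 3444 (5-array fit), 3795 (with quantile normalization), 4743 (with median centring), 2296 (title set 2 without Rep1 of both treatments, 419 higher and 1877 lower) and 950 (with the length trend removed). Leaving out one array each, the lowest and highest counts were 0 and 3444. For title set 2 minus both other sets, calls numbered 1 in the main setting, 2 with no filter, 3 with quantile normalization, 2550 with array weights, 636 without silwet Rep1, 0 without silwet Rep3, 4 without Rep1 of both treatments, 334 against title set 1 alone (79 without its silwet Rep1) and 0 against title set 3 alone. The causes were not tested. With the Rep number as a block the count for SA minus silwet stayed at 0, in the 18-array fit and in the 6 arrays alone. Deviations from the group means correlated at 0.185, 0.020 and 0.466 between SA and silwet arrays of the same Rep number, not above 0.1 in every pair, so the numbers were not taken as pairs, and not every array correlated best with its own number.

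Of the named genes' alternatives 1040 kept sign and side of the threshold, 20 passed it with array weights and 14 turned sign. With arrays left out, GRX480 ranged between -0.0356 (without silwet Rep3) and 0.694, BSMT1 between -0.123 (without silwet Rep2) and 1.12, THI2.1 between -1.52 and 0.265 (without silwet Rep1), GI between -1.09 and 0.443 (above 0 without SA Rep1, SA Rep2, silwet Rep2 or silwet Rep3) and GAPC2 between -0.0640 and 0.153 (below 0 without SA Rep1, SA Rep2 or silwet Rep3). THI2.1 was 0.0908 with array weights, GI 0.00521 with median centring and 0.273 with the length trend removed, and GAPC2 -0.0877 with quantile normalization. Of the list medians 27 moved by more than the spread between replicates and 524 did not.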
